A study of Homo sapiens with 18 samples.

Results

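The genes described here are 31 genes of the p53 pathway, measured in A549 cells after a short exposure to Ludox silica nanoparticles (NPs). They were taken as every non-control probe whose gene name in the array files is one of 31 names, whatever its level, which gave 38 of the 41000 probes on the array and 31 of the 30484 gene names. After removal of probes that were dim on many arrays, 37 of the 38 probes and all 31 genes remained, and 27 of the 31 genes were well above background on all 18 arrays, against 68.1% of all genes kept. Symbols were checked through the accession of each probe in a RefSeq gene table, where 35 of the 38 probes were found and all 35 carried the same symbol. The probes not found were those that represent MDM2 and POLH below and a further probe of MDM4, so their symbols rest on the array files alone.

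A549 is an established line from a human lung adenocarcinoma, and all results come from this 1 line. The 18 one-colour Agilent arrays fall into 6 groups of 3 biological replicates, lettered A to C. Cells were incubated for 2 h in medium without serum holding SM30 NPs, with a diameter of 9 nm, or AS30 NPs, with a diameter of 18 nm, and were then left in complete medium with serum for 3 h (both NPs) or for 22 h (AS30). Each of the 3 treated groups has its own 3 control cultures, which went through every step without NPs. SM30 at 22 h was not analysed here. The preparations also differ in counterion, sodium for SM30 and ammonium for AS30.

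The p53 protein is a transcription factor that is held at a low level in unstressed cells by MDM2, a ubiquitin ligase that is itself a p53 target, and by the related protein MDM4. When DNA damage or another stress stabilises p53, it binds response elements in and near its target genes. The products of those genes halt the cell cycle (CDKN1A), favour cell death (TNFRSF10B, FAS, APAF1), repair DNA (XPC, DDB2), adjust metabolism (SESN1, SESN2) or restrain p53 again (MDM2, PPM1D). Most of these genes also answer to other regulators.

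Promoter sequences are shown for members that passed the test in the same direction after more than 1 exposure, since these carry the main result. They were BTG1, CDKN1A, PLK3 and TP53INP1, and for TP53INP1 no promoter is given. Each sequence is the 250 bases before the start site, 5′ to 3′ on the strand of the gene, from RefSeq on build GRCh38.p14. Capitals mark 3 common promoter elements, each sought on both strands. They are the GC box, GGGCGG, the CCAAT box, spelt as named, and the TATA box, TATAAA. The BTG1 promoter lies at chr12:92145847-92146096 on the minus strand, the CDKN1A promoter at chr6:36678464-36678713 on the plus strand, and the PLK3 promoter at chr1:44800127-44800376 on the plus strand.
BTG1: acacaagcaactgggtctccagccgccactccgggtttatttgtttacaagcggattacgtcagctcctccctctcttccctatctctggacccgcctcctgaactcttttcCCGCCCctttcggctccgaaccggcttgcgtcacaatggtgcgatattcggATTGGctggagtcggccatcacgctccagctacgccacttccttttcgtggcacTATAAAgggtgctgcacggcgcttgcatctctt
CDKN1A: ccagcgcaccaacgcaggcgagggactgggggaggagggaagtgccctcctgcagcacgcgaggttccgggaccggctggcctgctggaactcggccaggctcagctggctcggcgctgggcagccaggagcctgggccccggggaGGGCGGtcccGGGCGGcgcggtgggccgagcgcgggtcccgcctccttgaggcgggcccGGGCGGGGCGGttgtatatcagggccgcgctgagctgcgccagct
PLK3: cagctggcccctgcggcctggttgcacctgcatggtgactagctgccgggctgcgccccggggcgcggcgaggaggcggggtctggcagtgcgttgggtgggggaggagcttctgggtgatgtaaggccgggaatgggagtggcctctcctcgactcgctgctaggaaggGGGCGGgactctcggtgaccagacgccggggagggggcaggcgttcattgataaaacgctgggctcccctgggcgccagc

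BTG1 held a TATA box at 33 to 28 bases before the start site, a CCAAT box on the opposite strand at 87 to 83 and a GC box on the opposite strand at 138 to 133. CDKN1A held 4 GC boxes, the nearest pair sharing 1 base at position 40, and PLK3 held 1 at 80 to 75. A GC box was present in 21 of the 26 members with a promoter in the table and in 42.3% of all 27305 promoters. A CCAAT box was present in 11 of the 26 and in 33% of all, and TATAAA in 2, BTG1 and GDF15, against 11.1% of all. The p53 half-site, searched on both strands by its consensus, matched 4 of the 26, EI24, FDXR, PLK2 and RPS27L, against 5.53% of all promoters. It had no match in the 3 sequences printed, which says only that the letters are not in these windows. The AP-1 motif TGANTCA was found in FAS and PERP, against 6.6% of all promoters, and the cyclic AMP response element TGACGTCA in EPHA2 and PPM1D, against 1.77%.

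Arrays were spread over 5 slides and 3 scan days. The AS30 treated arrays and the AS30 control arrays at 3 h lie on different slides, so that slide and treatment cannot be told apart from the arrays of that comparison. The SM30 and AS30 arrays share no slide and no scan day. One slide holds SM30 culture A with the 3 SM30 controls, and another holds the 3 AS30 cultures at 22 h with 1 of their controls, and within-slide values from these are given below. Between 65.97% and 83.67% of spots were positive and significant on an array. The epithelial markers KRT8, KRT18, KRT19, EPCAM and CDH1 and the A549 markers ALDH1A1, AKR1B10 and AKR1C1 were well above background on all 18 arrays. Markers of other cell types were mixed. Of the endothelial list PECAM1 was above background on 0, CDH5 on 1 and VWF on 11 arrays, and of the fibroblast list COL3A1 on 0, COL1A2 on 7 and COL1A1 on 18. Of the alveolar type 2 list SFTPA2 was so on 0, SFTPB on 1, SFTPD on 9, NKX2-1 on 17 and SFTPA1 and SFTPC on 18, and of the leukocyte list PTPRC on 5 and CD14 and CD68 on 18. Among the 3 leukocyte markers, CD68, a lysosomal protein that many cell types make, passed the test at 22 h with a log2 ratio of 1.67 (adjusted p = 0.0198), after ratios of 0.97 in both 3 h comparisons (adjusted p = 0.0532 and 0.078). CD14 had ratios of -0.24, 0.62 and -0.02 and passed in none, and PTPRC was not kept by the filter. CD68 was the brighter of the 2 kept markers on all 18 arrays. The log2 of the summed signal of CD68 and CD14 spanned 9.44 to 9.54 in SM30 controls and 10.105 to 10.18 after SM30, 9.39 to 9.72 and 10.27 to 10.64 for AS30 at 3 h, and 9.77 to 10.01 and 10.497 to 11.74 for AS30 at 22 h. At 22 h KRT19 rose by 1.21, while CDH1, EPCAM, KRT18 and KRT8 had ratios of -1.46, -0.61, -0.09 and -0.04 that did not pass, and SFTPA1 fell by 0.87, while NKX2-1 and SFTPC had 0.29 and -0.25 and did not pass. SFTPB and SFTPD did not pass either, and both were not well above background on any of the 22 h controls. The part of these values in the results below was not tested. In cultures measured in bulk, fewer cells of a kind and less RNA per cell cannot be told apart.

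A small set of p53 pathway genes rose after the NPs, and most members did not pass the test. TP53INP1 and BTG1 rose in all 3 comparisons and CDKN1A and PLK3 in both at 3 h. The BTG1 call at 22 h held in 13 of the 20 alternative analyses described below. The PLK3 calls held in 15 after SM30 and 14 after AS30. Signals are log2 of the processed spot signal after quantile normalization, a ratio is the log2 difference of a treated array and the control array of the same letter, and a gene is counted as passing where the limma test gave a Benjamini-Hochberg adjusted p under 0.05 over all probes. After SM30 at 3 h 8 of 31 members passed, 7 higher and 1 lower (25.8%), against 7.67% of all genes tested (4.24% higher and 3.43% lower). After AS30 at 3 h 5 passed, 4 higher and 1 lower (16.1%), against 2.62% of all genes (1.61% higher and 1.01% lower). After AS30 at 22 h 3 passed, all higher (9.68%), against 3.83% of all genes (2.72% higher and 1.11% lower). Among the 14312 genes well above background on all 18 arrays the shares were close to these, at 7.85%, 2.35% and 3.46%. The median log2 ratio over the members was 0.09, 0.02 and 0.14 in the 3 comparisons, and over all genes it was -0.07, 0.02 and -0.01.

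Of the 31 members 10 passed at least once, 2 in all 3 comparisons (BTG1 and TP53INP1), 2 in both 3 h comparisons (CDKN1A and PLK3) and 6 in 1. The other 21 members passed in none. In 6 members, BTG1, CDKN1A, PLK3, TNFRSF10B, TP53I3 and TP53INP1, the ratio was above 0 in all 9 pairs, and in 0 members was it below 0 in all 9. No share over all genes is given for these counts across comparisons, so no excess is read from them. The 3 comparisons also share 1 fit and 1 estimate of the spread. The 3 treated arrays lay wholly above the 3 controls for 11 members after SM30 and wholly below for 8, of the 29 members measured on all 6 arrays, when 43.3% of all such genes did not overlap. For AS30 at 3 h these numbers were 7 and 4 of 30, against 24.7% of all genes, and at 22 h they were 6 and 0 of 31, against 24.5%.

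**Figure D1:**
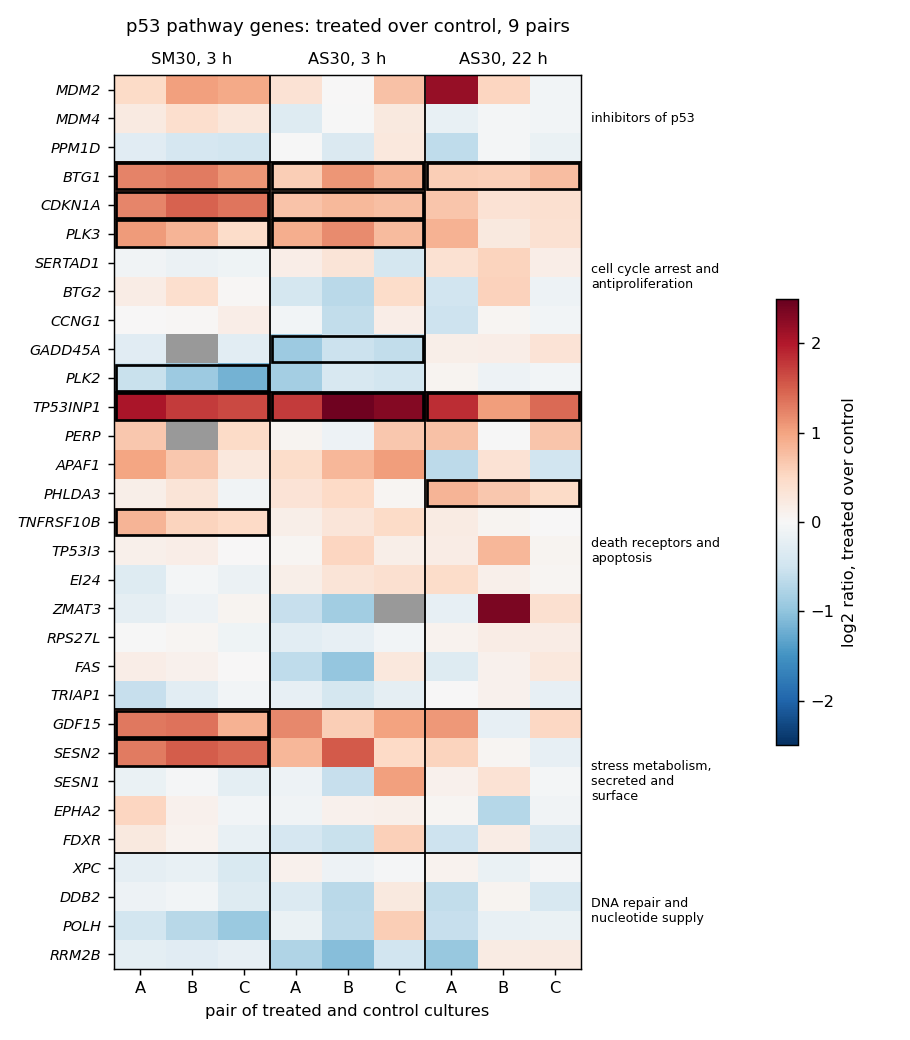
Each row is a p53 pathway gene, each column a pair of treated and control cultures, and colour gives the log2 ratio of treated over control on the scale at the right. Grey marks a pair with no measured ratio and a black frame an adjusted p under 0.05, which 8, 5 and 3 of the 31 genes reached in the 3 comparisons.

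**Figure D2:**
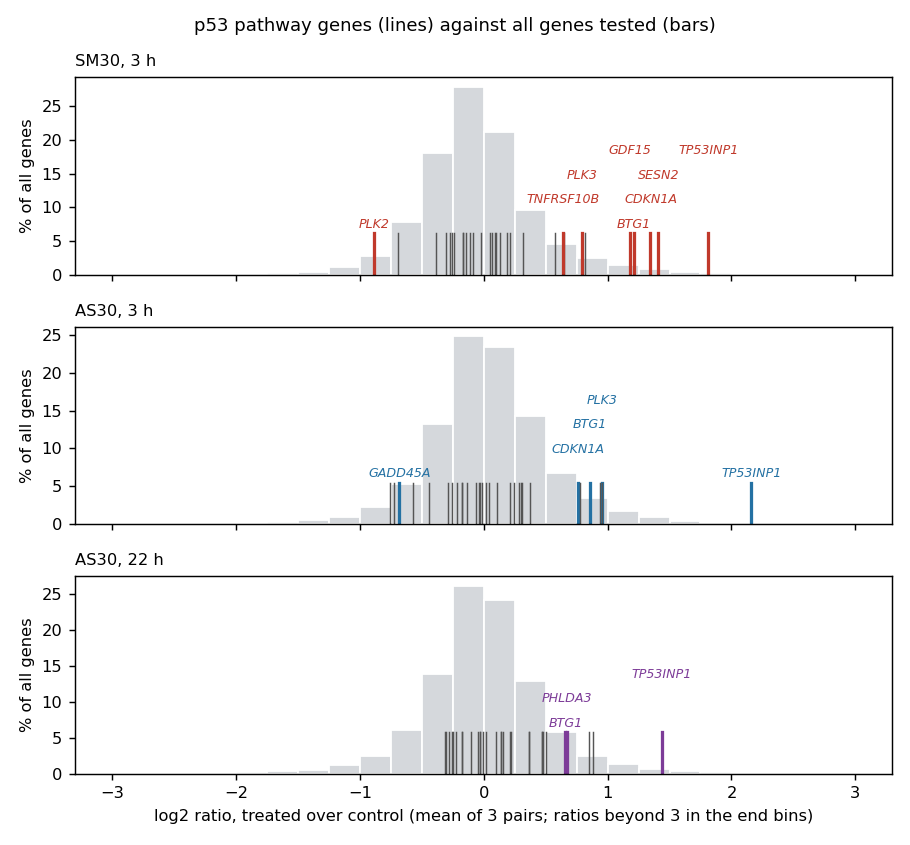
Bars give the percentage of all genes tested in each bin of the log2 ratio (mean of up to 3 pairs), and each vertical line is 1 of the 31 p53 pathway genes, coloured and named where it passed the test. The lines of most members fall within the body of the bars, and TP53INP1 stands farthest to the right in each panel, at 1.81, 2.16 and 1.44.

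Of the 8 members that act on the cell cycle, 3 were higher and 1 lower after SM30, 3 higher and 1 lower after AS30 at 3 h and 1 higher at 22 h, when 7.67%, 2.62% and 3.83% of all genes passed. CDKN1A encodes p21, the inhibitor of cyclin-dependent kinases that is the best known p53 target for cell cycle arrest. Its signal in the SM30 controls A, B and C was 11.71, 11.59 and 11.52, and in the SM30 cultures it was 12.93, 13.07 and 12.86. The AS30 controls at 3 h gave 12.64, 12.34 and 12.53 and the AS30 cultures 13.36, 13.16 and 13.28. At 22 h the controls gave 11.88, 12.01 and 11.96 and the AS30 cultures 12.56, 12.36 and 12.36. Every treated array lay above every control array of its own comparison, with the widest gap after SM30. CDKN1A rose by 1.35 on the log2 scale after SM30 (SE 0.11, n = 3 pairs, 2.54-fold, adjusted p = 0.00104 by limma) and by 0.76 after AS30 at 3 h (SE 0.11, 1.69-fold, adjusted p = 0.0184). At 22 h its ratio was 0.48 (SE 0.11), which missed the threshold at an adjusted p of 0.0545. The second CDKN1A probe, a dimmer one, gave ratios of 1.16, 0.81 and 0.42, and passed the test in the same 2 comparisons. Within one slide the SM30 culture A lay 1.32 above the mean of the 3 controls, and the 22 h cultures lay 0.47 above the single control beside them.

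BTG1, an antiproliferative protein of the BTG/TOB family that works with the mRNA deadenylation complex, rose in all 3 comparisons. Its signal was 11.69, 11.66 and 11.82 in the SM30 controls and 12.93, 12.96 and 12.92 after SM30. It was 11.788, 11.999 and 11.750 in the AS30 controls at 3 h and 12.40, 13.11 and 12.60 after AS30, and 11.40, 11.27 and 11.57 in the controls at 22 h and 12.005, 11.87 and 12.34 after AS30. No treated array overlapped with its controls, and the 3 SM30 cultures lay close together. The log2 ratio was 1.21 after SM30 (SE 0.12, 2.32-fold, adjusted p = 0.00214), 0.86 after AS30 at 3 h (SE 0.12, 1.81-fold, adjusted p = 0.0176) and 0.66 at 22 h (SE 0.12, 1.58-fold, adjusted p = 0.0322). On one slide the differences were 1.21 for SM30 culture A and 0.50 for AS30 at 22 h. Its paralog BTG2, also a member and a p53 target, had ratios of 0.21, -0.22 and -0.01 and passed in none.

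PLK2 and PLK3 are polo-like kinases of the stress response, and they moved in opposite directions after SM30. PLK3 gave 10.82, 10.96 and 11.48 in the SM30 controls and 11.89, 11.81 and 11.95 after SM30, and 11.08, 10.87 and 11.27 in the AS30 controls at 3 h and 11.98, 12.04 and 12.06 after AS30. The 22 h controls gave 10.91, 10.74 and 11.22 and the treated cultures 11.78, 10.99 and 11.61. The groups did not overlap at 3 h and did at 22 h, where culture B lay below control C. PLK3 rose by 0.79 after SM30 (SE 0.16, adjusted p = 0.026) and by 0.96 after AS30 at 3 h (SE 0.16, adjusted p = 0.0296), and its ratio at 22 h was 0.50 (adjusted p = 0.12). PLK2 gave 14.83, 14.96 and 15.30 in the SM30 controls and 14.27, 14.04 and 14.12 after SM30, so that every treated array was the lower. It fell by 0.89 on the log2 scale (SE 0.15, adjusted p = 0.0119). In the AS30 controls at 3 h PLK2 gave 14.86, 14.49 and 14.86 and in the AS30 cultures 14.01, 14.10 and 14.39, also without overlap, with a ratio of -0.57 (SE 0.15, adjusted p = 0.0764). The PLK2 controls at 22 h gave 14.79, 15.15 and 14.93 and the treated cultures 14.86, 15.02 and 14.86, and the ratio was -0.04 (adjusted p = 0.89). On the SM30 slide culture A differed from the controls by 0.80 for PLK3 and by -0.76 for PLK2, and on the 22 h slide the differences were 0.23 and -0.01.

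GADD45A, a small protein of growth arrest and DNA repair, was the 1 member that passed the test as lower after AS30 at 3 h. Its signal was 12.93, 12.50 and 13.13 in the controls and 12.03, 11.97 and 12.52 in the treated cultures, each pair lower, although treated culture C lay just above control B. The ratio was -0.68 (SE 0.12, 0.62-fold, adjusted p = 0.0374). The call was made in 10 of the 18 alternatives that could test it, and without pairing by letter the adjusted p was 0.0564. In the SM30 controls it gave 12.82, 12.99 and 13.00 and in SM30 cultures A and C 12.55 and 12.74, the spot of culture B having been marked as an outlier and left out, with a ratio of -0.27 from 2 pairs (adjusted p = 0.286). At 22 h the controls gave 11.93, 12.18 and 12.22 and the treated cultures 12.09, 12.35 and 12.56, with a ratio of 0.22 (adjusted p = 0.312). On one slide GADD45A differed by -0.39 for SM30 culture A and by 0.11 for AS30 at 22 h. The remaining 2 members of the group, CCNG1, a cyclin induced by p53, and SERTAD1, a regulator of CDK4 and E2F, had ratios between -0.18 and 0.37 and passed in none.

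**Figure D3:**
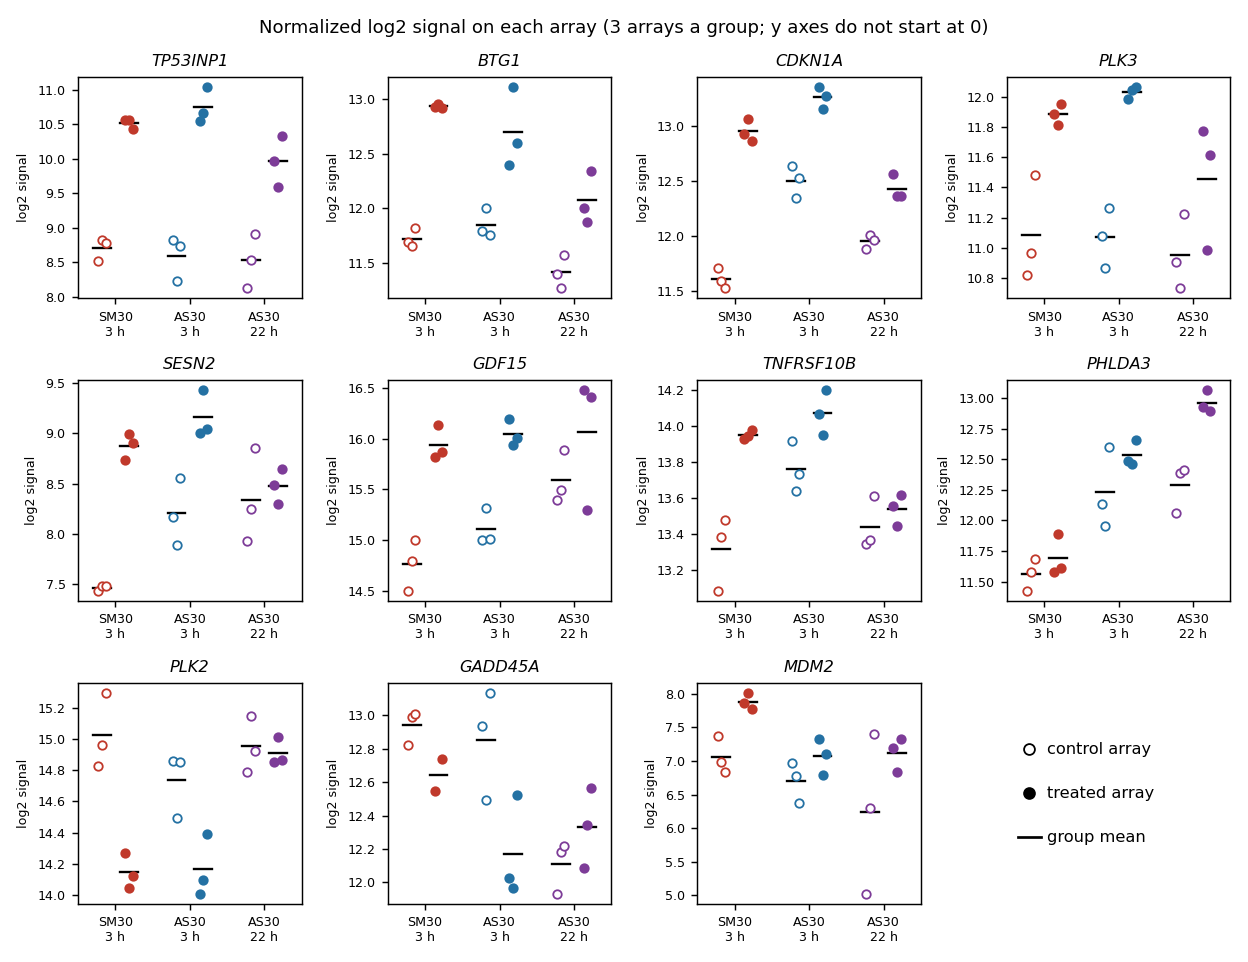
Points are the normalized log2 signal of a gene on each array, open for control and filled for treated cultures, 3 a group, and short lines are group means. TP53INP1 and BTG1 show treated points above all control points in every comparison, PLK2 shows the reverse at 3 h, and MDM2 has 1 control point at 5.02 at 22 h far below the rest.

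Of the 11 members tied to cell death, 2 passed as higher after SM30 (TP53INP1 and TNFRSF10B), 1 after AS30 at 3 h (TP53INP1) and 2 at 22 h (TP53INP1 and PHLDA3). None passed as lower. Of all genes 4.24%, 1.61% and 2.72% passed as higher. TP53INP1 encodes a stress-induced nuclear protein that takes part in p53-dependent cell death and in autophagy, and it had the largest ratio of the 31 members in each comparison. Its signal was 8.51, 8.82 and 8.78 in the SM30 controls and 10.56, 10.56 and 10.43 after SM30. In the AS30 controls at 3 h it was 8.81, 8.23 and 8.74 and after AS30 10.55, 10.67 and 11.04, and at 22 h it was 8.12, 8.53 and 8.91 in the controls and 9.96, 9.59 and 10.34 after AS30. The lowest treated array lay above the highest control in each comparison. TP53INP1 rose by 1.81 after SM30 (SE 0.19, 3.52-fold, adjusted p = 0.00221), by 2.16 after AS30 at 3 h (SE 0.19, 4.47-fold, adjusted p = 0.00488) and by 1.44 at 22 h (SE 0.19, 2.71-fold, adjusted p = 0.018). On one slide the differences were 1.86 for SM30 culture A and 1.05 for AS30 at 22 h.

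TNFRSF10B, the death receptor DR5 for the ligand TRAIL, gave 13.08, 13.38 and 13.48 in the SM30 controls and 13.93, 13.94 and 13.98 after SM30. The 3 treated arrays were close together and above every control, and the gene rose by 0.64 (SE 0.12, 1.55-fold, adjusted p = 0.0186). The AS30 controls at 3 h gave 13.92, 13.64 and 13.73 and the AS30 cultures 14.07, 13.95 and 14.20, also without overlap but with a ratio of 0.31 (adjusted p = 0.159). TNFRSF10B in the 22 h controls was 13.34, 13.36 and 13.61 and in the treated cultures 13.55, 13.44 and 13.62, with a ratio of 0.10 (adjusted p = 0.666). The second, dimmer probe of TNFRSF10B gave larger ratios at 3 h, 1.09 after SM30 (adjusted p = 0.00519) and 0.62 after AS30 (adjusted p = 0.0588), and 0.01 at 22 h. On one slide the brighter probe differed by 0.61 for SM30 culture A and by -0.07 for AS30 at 22 h. FAS, the other death receptor of the list, had ratios of 0.09, -0.44 and 0.02 and passed in none.

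PHLDA3, a p53-induced protein that competes with AKT for membrane lipids, was called at 22 h and not at 3 h. Its 22 h controls gave 12.06, 12.39 and 12.41 and the AS30 cultures 12.92, 13.06 and 12.90, all above the controls. It rose by 0.67 (SE 0.14, 1.60-fold, adjusted p = 0.0396), and the treated cultures lay 0.55 above the control on their slide. At 3 h AS30 controls gave 12.13, 11.96 and 12.60 and treated cultures 12.48, 12.46 and 12.65, with a ratio of 0.30 (adjusted p = 0.214), and SM30 controls gave 11.42, 11.58 and 11.69 and treated cultures 11.58, 11.89 and 11.61, with a ratio of 0.13 (adjusted p = 0.592) and a difference of 0.02 for culture A on its slide. Both 3 h comparisons overlapped, and the difference between 22 h and 3 h after AS30 was 0.37 (95% interval -0.06 to 0.81, adjusted p = 0.365). APAF1, the scaffold of the apoptosome, had ratios of 0.64 after SM30 and 0.78 after AS30 at 3 h that missed the threshold (adjusted p = 0.113 and 0.0918), and -0.26 at 22 h. TP53I3, an oxidoreductase that p53 induces, lay above 0 in all 9 pairs with mean ratios of only 0.10, 0.25 and 0.37. The ratios of EI24, PERP, RPS27L and TRIAP1 ran from -0.31 to 0.57 and none passed. The PERP ratio after SM30 and the ZMAT3 ratio after AS30 at 3 h came from 2 pairs, since 1 spot was missing in each. ZMAT3, an RNA-binding zinc finger protein, was well above background on 13 of the 18 arrays and on 0 of the 3 controls at 22 h, so that no size is given for it there, and it did not pass at 3 h.

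Of the 5 members that act in stress metabolism or at and beyond the cell surface, 2 passed after SM30, both higher. None passed after AS30 at 3 h or 22 h. Of all genes 7.67%, 2.62% and 3.83% passed in the 3 comparisons. SESN2, a sestrin that restrains mTORC1 signalling under stress, gave 7.43, 7.48 and 7.48 in the SM30 controls and 8.73, 8.99 and 8.90 after SM30, with no overlap, and rose by 1.41 (SE 0.21, 2.66-fold, adjusted p = 0.00799). On the SM30 slide the difference was 1.27. The AS30 controls at 3 h gave 8.17, 7.89 and 8.55 and the AS30 cultures 9.00, 9.43 and 9.05, a ratio of 0.95 just short of the threshold (SE 0.21, adjusted p = 0.0539). At 22 h the controls gave 7.92, 8.24 and 8.85 and the treated cultures 8.49, 8.30 and 8.65, and the ratio was 0.14 (adjusted p = 0.742), against a difference of -0.38 from the control on the same slide. Both 3 h comparisons thus had every pair above 0, while the 22 h groups overlapped and pair C was below 0. SESN1, its paralog, had ratios of -0.15, 0.11 and 0.14, and its second, dimmer probe gave -0.24, -1.13 (adjusted p = 0.0886) and -0.26.

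GDF15, a secreted stress cytokine of the TGF-beta family, was among the brightest members. It gave 14.50, 14.79 and 15.00 in the SM30 controls and 15.82, 16.14 and 15.87 after SM30, and 15.00, 15.32 and 15.01 in the AS30 controls at 3 h and 16.20, 15.94 and 16.01 after AS30. Neither comparison overlapped. GDF15 rose by 1.18 after SM30 (SE 0.23, 2.27-fold, adjusted p = 0.0217), with a difference of 1.05 on the SM30 slide, and its ratio after AS30 at 3 h was 0.94 (SE 0.23, 1.92-fold, adjusted p = 0.0698). In the 22 h controls GDF15 was 15.40, 15.50 and 15.89 and in the treated cultures 16.48, 15.30 and 16.41, so that culture B lay below every control and the ratio was 0.47 (SE 0.23, adjusted p = 0.265), with a difference of 0.18 on the same slide. The receptor tyrosine kinase EPHA2 and the mitochondrial ferredoxin reductase FDXR had ratios between -0.25 and 0.19 and passed in none.

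None of the 3 inhibitors of p53 passed in any comparison of the main fit, when 7.67%, 2.62% and 3.83% of all genes passed. MDM2 is usually among the first p53 targets to rise, and here its brighter probe was dim, well above background on 15 of the 18 arrays. It gave 7.37, 6.98 and 6.84 in the SM30 controls and 7.86, 8.01 and 7.78 after SM30, without overlap, and the ratio was 0.82 (SE 0.36, 95% interval -0.01 to 1.65, adjusted p = 0.203). The spread behind this SE is shared by the 3 comparisons. MDM2 after SM30 passed in 2 of the 19 alternatives that could test it. Without AS30 pair A at 22 h the ratio of 0.82 had an SE of 0.19 (adjusted p = 0.0464 by limma). With normexp background correction the ratio was 0.255 (adjusted p = 0.0463). In the AS30 controls at 3 h the brighter probe gave 6.98, 6.77 and 6.37 and in the AS30 cultures 7.33, 6.79 and 7.10, with a ratio of 0.37 (SE 0.36, adjusted p = 0.555). At 22 h the controls gave 5.02, 6.30 and 7.41, of which 1 of 3 was well above background, and the treated cultures 7.20, 6.84 and 7.33, with a ratio of 0.88 (SE 0.36, adjusted p = 0.196). Against the control on the same slide, the 22 h cultures lay 0.29 lower, a difference of -0.29 on the log2 scale, so that the ratio at 22 h rests on the 2 dimmer controls. The second MDM2 probe, dimmer still, gave 0.38, 0.10 and 0.31. MDM4 had ratios of 0.31, -0.03 and -0.10, with a second probe close to these and the third, a dim one, that gave -0.28, 0.65 and 0.19, and none of the 3 passed. PPM1D, the phosphatase WIP1 that dephosphorylates p53 and its kinases, had ratios of -0.39, -0.04 and -0.28.

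None of the 4 members of DNA repair and nucleotide supply passed either, when 7.67%, 2.62% and 3.83% of all genes passed. With so few genes, no trait of the group is read from this. XPC and DDB2, which recognise lesions in nucleotide excision repair, had ratios between -0.32 and -0.02. POLH, a translesion polymerase, had -0.70 after SM30 (adjusted p = 0.0971 by limma), -0.07 and -0.30. Its other probe, whose accession RefSeq gives as POLH, was well above background on 0 arrays and was not kept. RRM2B, a p53-inducible subunit of ribonucleotide reductase, had -0.24, -0.76 (adjusted p = 0.103 by limma) and -0.18. The median of the group was -0.25, -0.16 and -0.24, below that of all genes in each comparison, but it rests on 4 genes and was not tested.

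The calls depended unequally on single cultures and on the slide. After SM30, BTG1, CDKN1A and TP53INP1 passed in all 20 alternative analyses, whereas the number of members called was 5, 3 and 3 without pair A, B or C and 4 with slide as a fixed term, in which 28 members could be tested. Calls over all probes fell too, from 2146 in the main fit to 567, 289 and 298 without these pairs. With the slide term they fell to 323, so the losses are not particular to the members. After AS30 at 3 h, TP53INP1 passed in 19 of 20, and the count was 2 and 1 without AS30 pair A or B, 3 without SM30 pair A or B, which lend the fit their spread, and 0 with slide as a fixed term. Leaving out the AS30 pair C raised the count to 7. Calls over all probes moved likewise, from 720 in the main fit to 202, 81 and 3060 without AS30 pair A, B or C. They numbered 210 and 194 without SM30 pair A or B, and 28 with the slide term. At 22 h the count was 0, 1 and 0 without AS30 pair A, B or C, 1 without any 1 SM30 pair and 0 with slide as a fixed term. Over all probes 1008 passed at 22 h in the main fit, and 2, 1205 and 184 without AS30 pair A, B or C. Without SM30 pair A, B or C 275, 181 and 375 passed, and with the slide term 6. By gene, TP53INP1 passed at 22 h in 17 of the 20 alternatives, BTG1 in 13 and PHLDA3 in 10. PLK3 passed in 15 of the 20 after SM30 and in 14 after AS30 at 3 h.

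Whether SM30 and AS30 at 3 h differed in these genes was tested as the difference of their ratios, and 0 of 31 members passed, against 0.0143% of all genes (limma, with 2 members, or 6.5%, at an unadjusted p under 0.05, 1 in each direction, against 15.4% of all genes). These 2, neither of which passed, were CDKN1A, with a larger ratio after SM30 by 0.59 (95% interval 0.23 to 0.94, adjusted p = 0.232), and EI24, an endoplasmic reticulum protein, with a smaller one by a difference of -0.45 (interval -0.85 to -0.06, adjusted p = 0.296). The interval was -0.95 to 0.25 for TP53INP1, -0.04 to 0.75 for BTG1, -0.69 to 0.37 for PLK3, -0.22 to 1.13 for SESN2, -0.50 to 0.99 for GDF15 and -0.79 to 0.16 for PLK2. All of the intervals in the last sentence hold 0, which does not show that the responses were alike. Each response is over its own controls, and the control sets themselves were not alike. In a limma fit of the 18 arrays, 11 of the 31 members differed between the AS30 and SM30 controls at 3 h, 6 higher and 5 lower in AS30, against 26.2% of all genes. CDKN1A was 0.90 higher in the AS30 controls (SE 0.11, adjusted p = 0.00018), EPHA2 0.83, SESN2 0.74, PHLDA3 0.67, TNFRSF10B 0.45 and XPC 0.36 higher. The 5 lower members were APAF1, with a difference of -0.87, POLH, with -0.83, CCNG1, with -0.46, RPS27L, with -0.45, and MDM4, with -0.40. The difference between control sets cannot be told apart from slide and scan day.

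The change from 3 to 22 h after AS30 was tested in the same way, and again 0 of 31 members passed, against 0.0388% of all genes (limma, with 4 higher and 3 lower, or 22.6%, at an unadjusted p under 0.05, against 18.2% of all genes). These comparisons each have their own controls. GADD45A had the smallest p, with a ratio 0.90 higher at 22 h (interval 0.51 to 1.29, adjusted p = 0.114). PLK2 was 0.53 higher (interval 0.06 to 1.00) and RPS27L 0.33 higher (interval 0.01 to 0.65), and the fourth, ZMAT3, was too dim for a size. The 3 with lower ratios at 22 h were APAF1, with a difference of -1.04 (interval -1.74 to -0.33), SESN2, with -0.82 (interval -1.49 to -0.14), and TP53INP1, with -0.72 (interval -1.33 to -0.12). Between the control groups of the 2 times, CDKN1A alone of the members passed, lower at 22 h by a difference of -0.56 (adjusted p = 0.0226), against 1.34% of all genes. The GADD45A controls differed by -0.74 (adjusted p = 0.0758 by limma), which did not pass.

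**Figure D4:**
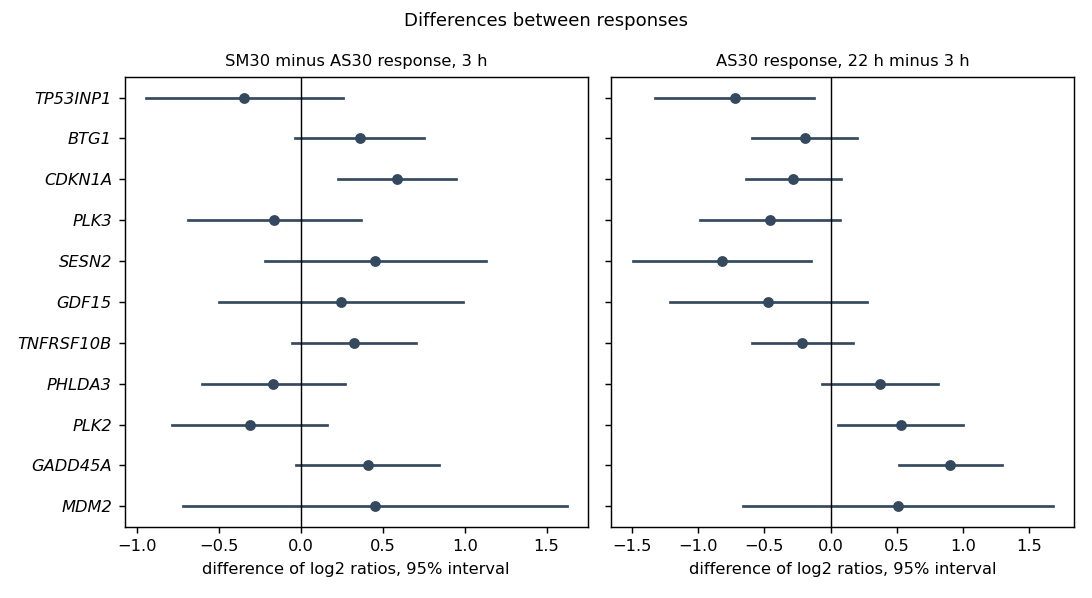
Points are the difference between 2 log2 ratios (left, SM30 minus AS30 at 3 h; right, AS30 at 22 h minus 3 h) and bars are 95% intervals from limma, unadjusted, for the 10 members called at least once and MDM2. On the left only CDKN1A has an interval clear of 0, and on the right TP53INP1, SESN2, PLK2 and GADD45A do, none with an adjusted p under 0.05.

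Other genes of the pathway were counted from 3 lists written from general knowledge. Of the 18 regulators of p53, SIRT1, a deacetylase of p53 and of histones, was the 1 that passed, rising by 1.13 after SM30 (SE 0.16, adjusted p = 0.00735), and 0 passed after AS30, where 5 at 3 h (27.8%) and 1 at 22 h (5.6%) had an unadjusted p under 0.05, against 25.1% and 23.7% of all genes. The 1 call after SM30 is 5.56% of the list, against 7.67% of all genes. The median ratio of the regulators was 0.05, -0.06 and -0.08.

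Of 20 further p53 targets measured, 6 passed after SM30, 4 higher and 2 lower (30%), 3 after AS30 at 3 h (15%) and 1 of 19 at 22 h (5.26%), against 7.67%, 2.62% and 3.83% of all genes. SFN, the 14-3-3 sigma protein of G2 arrest, rose by 1.37 (SE 0.12, adjusted p = 0.00115), PMAIP1, which encodes the BH3-only protein NOXA, by 1.11 (SE 0.15, adjusted p = 0.00567), TNFAIP8 by 0.96 (adjusted p = 0.0101), and TNFRSF10A, the other TRAIL death receptor, by 0.78 (adjusted p = 0.0184). After AS30 at 3 h SFN rose by 0.79 (adjusted p = 0.0184) and TNFAIP8 by 0.89 (adjusted p = 0.0298), and IGFBP3, which binds insulin-like growth factors, fell by 0.88 (adjusted p = 0.0474). The 1 at 22 h was DRAM, a lysosomal protein of autophagy, which rose by 0.61 (adjusted p = 0.0428). The 2 that fell after SM30 both encode secreted proteins and are named after their values were seen. IGFBP3 fell by 0.76 (adjusted p = 0.042), and THBS1 fell by 2.21 (SE 0.43, adjusted p = 0.0214), with 3 pairs that lay far apart at -0.76, -3.65 and -2.21. The median of the list was -0.07, 0.07 and 0.12.

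Of 19 paralogs of members measured, 3, 1 and 2 passed in the 3 comparisons, all higher, when 7.67%, 2.62% and 3.83% of all genes passed, and CCNG2 was called in all 3. It encodes cyclin G2, which unlike its paralog CCNG1 is best known as a target of FOXO factors and is linked to cell cycle arrest. It gave 7.37, 7.19 and 7.39 in the SM30 controls and 10.31, 10.21 and 10.20 after SM30, and 7.21, 7.57 and 6.60 in the AS30 controls at 3 h and 9.37, 9.86 and 9.19 after AS30. The controls at 22 h gave 7.08, 6.38 and 7.45 and the treated cultures 8.79, 7.68 and 9.05. Every treated array lay above its controls. CCNG2 rose by 2.92 (SE 0.13, adjusted p = 0.000136), 2.34 (adjusted p = 0.00118) and 1.54 (adjusted p = 0.0101), when the member CCNG1 had ratios of 0.07, -0.17 and -0.18. CDKN1C, the p57 relative of CDKN1A, rose by 0.98 after SM30 (adjusted p = 0.00735) and by 1.16 after AS30 at 22 h (adjusted p = 0.0171), and PHLDA1, a relative of PHLDA3, by 0.61 after SM30 (adjusted p = 0.0315). The median of the paralogs was 0.10, 0.19 and 0.09.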

How the data were processed

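Total RNA of 18 A549 cultures was hybridised to one-colour Agilent arrays. The authors deposited 1 scanner file per array, from Agilent Feature Extraction 10.5.1.1, whose spot intensities are linear and background-subtracted, and a table of quantile-normalized intensities, which served as an alternative. Columns not used numbered 0. From the scanner files, log2 processed intensities were quantile-normalized with limma 3.58.1 in R 4.3.3, spots not positive and significant or marked as outliers were set to missing, replicate spots were averaged, and probes with over 33% missing values were removed, which left 28665 probes. A gene is represented by its brightest probe. Such arrays carry no read depth, and 3 replicates a group limit precision.

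Signals of treated cultures were set over those of the control with the same letter, since the methods speak of a corresponding control. The 9 log2 ratios, in 3 classes, were fitted with limma, which left 6 residual degrees of freedom, and p-values were adjusted over all probes. The deviations of same-letter arrays correlated between -0.091 and 0.476. A separate limma fit of 18 arrays compared control groups. Members and lists were chosen with earlier results of these data known. Array values are given for MDM2, CDKN1A, GDF15 and members that passed, and from the other lists at most the 4 smallest adjusted p a comparison. Some listed genes are not reported here. Array values of CCNG2, and other members singled out, were chosen after their values were seen. Promoters come from RefSeq. The fits were tested on simulated data, and 20 alternatives were run.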

Additional observations from a re-analysis of the deposited data

Results flagged for a closer look

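Ratios of opposite sign in every pair of 2 comparisons were seen in 3 members. These 3 were picked by that rule, and no share over all genes is given for it, so no excess is read from the count. GADD45A was below 0 in the 3 AS30 pairs at 3 h (-0.91, -0.53 and -0.61) and above 0 in the 3 at 22 h (0.16, 0.16 and 0.34), a difference of 0.90 whose limma test gave an adjusted p of 0.114. Its controls were themselves lower at 22 h than at 3 h, with a difference of -0.74 (SE 0.19, adjusted p = 0.0758 by limma). The part of the controls in the change of sign was not tested. EI24 was below 0 in the 3 SM30 pairs (-0.32, -0.05 and -0.15) and above 0 in the 3 AS30 pairs at 3 h (0.14, 0.31 and 0.40), a difference of -0.45 with an adjusted p of 0.296. RPS27L, a ribosomal protein relative that p53 induces, was below 0 in the AS30 pairs at 3 h (-0.26, -0.20 and -0.06) and above 0 at 22 h (0.09, 0.18 and 0.19), a difference of 0.33 with an adjusted p of 0.287. None of these differences passed the test.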

How the results depend on the processing

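The 20 alternatives (19 set beforehand and a scan day term chosen after seeing the data) changed the scaling, background correction, dim-spot filter, outlier spots, probe rule, source table, pairing and slide or scan day terms, or left out 1 pair. With slide as a fixed term, 4, 0 and 0 members passed after SM30, AS30 at 3 h and AS30 at 22 h, in place of 8, 5 and 3. Over all probes 323, 28 and 6 passed, in place of 2146, 720 and 1008. Of the genes of the other lists, 2 of 53 passed at least once, in place of 11 of 57. No share over all genes is given for such counts of the other lists. The slide fit used the 28 members without missing arrays and few same-slide comparisons. For AS30 at 3 h it parts slide from treatment only through control A at 22 h on the slide of the controls and control B at 22 h on that of the treated cultures. In the slide fit MDM2 turned to -0.906 at 3 h and -0.285 at 22 h after AS30. After AS30 at 3 h, 3 members passed with no filter on dim spots and 9 with slide as a random term, when 274 and 3884 of all probes passed, against 720 in the main fit. Normexp correction gave 17 genes of the other lists. Without 1 pair the counts were 3 to 9 after SM30, 1 to 7 after AS30 at 3 h, 0 to 3 at 22 h and 3 to 13 for the other lists. Calls over all probes then ran from 289 to 2721 after SM30, 81 to 3060 after AS30 at 3 h and 2 to 1364 at 22 h. Both differences between responses gave 0 members under every alternative.

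Same-letter arrays did not all deviate together, so the letters are not shown to pair the cultures. Without the replicate block 8, 6 and 4 members passed, 12 of the other genes and 0 in both differences, when 2518, 1313 and 1408 of all probes passed in the 3 comparisons. GADD45A was not among the 6, with an adjusted p of 0.0564. Of 22 gene ratios examined, those of MDM2 after AS30 were the 2 that turned sign. For CDKN1A at 22 h 5 of the 20 gave a call, and its adjusted p spanned 0.0165 to 0.484.

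Dim probes limit MDM2, ZMAT3 and the second probe of SESN1, and 3 pairs a comparison limit all intervals. Slide and treatment cannot be told apart for AS30 at 3 h from its own arrays. The other comparisons also cross slides in part. SM30 cultures B and C lay on a slide without controls, and controls A and B at 22 h lay on slides without 22 h treated cultures.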
